A study of Mus musculus with 6 samples.

Results

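Transcripts of the 5 actin genes of heart muscle and vessel wall, Acta1, Actc1, Acta2, Actb and Actg1, were followed in left ventricles of mice without cytoglobin, a globin protein, and of their wild-type littermates. The genes were taken by symbol from a table of 13384 genes, and all 5 were found once and entered the tests. Polyadenylated RNA was sequenced in 6 libraries, each from 1 mouse, 3 with a global Cygb deletion, Cygb(-/-), and 3 wild types, Cygb(+/+). Mice of both genotypes were adult, of a strain not given in the sources used here, and were infused through subcutaneous pumps with angiotensin II, which raises blood pressure (2 weeks, 1.5 mg/kg/day). The deletion is in every cell of the animal, and no mouse without angiotensin II was analysed here, so each difference below is between genotypes in a heart under that infusion. The libraries held 23190864 to 30354857 counts, and each of the 5 genes had at least 1107 counts in each of them.

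Actins are the subunits of thin filaments in muscle and of the cytoskeleton in all cells. The adult heart muscle cell uses mainly cardiac alpha-actin, made from Actc1, and a smaller amount of skeletal alpha-actin, made from Acta1, which is abundant in the fetal heart and is a classic marker of hypertrophy. Smooth muscle alpha-actin, made from Acta2, belongs to vessel walls and to activated fibroblasts, and the cytoplasmic beta- and gamma-actins, made from Actb and Actg1, occur in nearly every cell. The muscle genes are controlled by serum response factor (SRF) and its cofactors, which bind a motif called the CArG box.

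The coding sequences are close relatives. In full-length GENCODE M21 transcripts on GRCm38 the 3 muscle genes each encode 377 codons and the 2 cytoplasmic ones 375. Acta1 and Actc1 were identical at 86.16% of 1134 aligned coding bases, Acta1 and Acta2 at 85.36%, and Actb and Actg1 at 88.65%. The first 60 coding bases are shown because they hold the start of the protein, where the isoforms are most easily told apart. Capitals mark the 19 positions at which the 3 muscle genes do not all have the same base.
Acta1: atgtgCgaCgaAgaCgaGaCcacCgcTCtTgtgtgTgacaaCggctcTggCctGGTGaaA
Actc1: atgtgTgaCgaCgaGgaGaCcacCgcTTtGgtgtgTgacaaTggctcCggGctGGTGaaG
Acta2: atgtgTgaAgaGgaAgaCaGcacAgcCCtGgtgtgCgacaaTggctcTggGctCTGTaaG
The cytoplasmic genes are set apart in the same way from each other, with capitals at the 9 positions that differ between them.
Actb: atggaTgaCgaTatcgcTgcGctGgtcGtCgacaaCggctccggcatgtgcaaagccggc
Actg1: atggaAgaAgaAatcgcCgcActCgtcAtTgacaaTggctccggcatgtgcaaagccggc

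These differences bear on what the counts can resolve, since reads that fit several genes could have been split or dropped by the authors' counting. No stretch of 100 bases of the Acta1, Actc1 or Acta2 transcript occurred unchanged in a GENCODE transcript of another gene. For Actb 1.1% of such stretches did. For Actg1 it was 51.1%, shared with 6 further gene models, and 43.5% at 150 bases. Of stretches of 50 bases, 2.22% were shared for Acta1, 0.352% for Acta2, none for Actc1, 14.2% for Actb and 56.7% for Actg1. The Actg1 level is therefore uncertain. On the opposite strand Actc1 is overlapped by A530058N18Rik and Acta1 by the readthrough model Gm20388. Use of strand is not given in the sources used here, so reads of an actin and its overlapping partner could not be told apart.

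In GRCm38 all 5 genes are protein-coding and on the minus strand, and each value covers the reads assigned to the whole gene. GENCODE places Acta1 on chromosome 8 from 123891769 to 123894751, Actc1 on chromosome 2 from 114047282 to 114053548 and Acta2 on chromosome 19 from 34241090 to 34255590. Actb lies on chromosome 5 from 142903115 to 142906754, and Actg1 on chromosome 11 from 120345690 to 120348542.

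Promoters are shown because SRF control is common to the muscle actins, whose levels are compared below. The windows are the 250 bases before the start of the gene in RefSeq (GRCm38.p6), all on the minus strand, at chr8:123894776-123895025 for Acta1, chr2:114052876-114053125 for Actc1, chr19:34255374-34255623 for Acta2 and chr11:120348496-120348745 for Actg1. RefSeq windows were matched for these 4 of the 5 genes. The RefSeq starts differ from the ends of the GENCODE spans given above. The Actc1 window and most of the Acta2 window lie inside those spans, so the positions below hold for the RefSeq start only. Capitals mark matches to the CArG box, which is CC, a run of A or T bases, and GG, with at most 1 other base inside the run; the motif reads the same way on both strands.
Acta1: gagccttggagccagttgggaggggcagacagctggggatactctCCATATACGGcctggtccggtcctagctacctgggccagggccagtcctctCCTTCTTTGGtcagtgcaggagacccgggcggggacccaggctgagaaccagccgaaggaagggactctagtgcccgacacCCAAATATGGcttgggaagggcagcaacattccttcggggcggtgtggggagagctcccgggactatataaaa
Actc1: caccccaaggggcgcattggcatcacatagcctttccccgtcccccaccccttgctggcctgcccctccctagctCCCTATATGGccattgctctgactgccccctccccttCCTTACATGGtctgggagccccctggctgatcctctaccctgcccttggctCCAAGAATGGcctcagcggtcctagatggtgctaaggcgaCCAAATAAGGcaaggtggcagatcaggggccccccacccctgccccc
Acta2: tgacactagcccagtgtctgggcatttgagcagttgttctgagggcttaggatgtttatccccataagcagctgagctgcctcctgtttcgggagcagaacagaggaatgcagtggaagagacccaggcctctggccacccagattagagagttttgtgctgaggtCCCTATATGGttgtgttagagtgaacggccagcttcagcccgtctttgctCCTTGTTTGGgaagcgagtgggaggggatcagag
Actg1: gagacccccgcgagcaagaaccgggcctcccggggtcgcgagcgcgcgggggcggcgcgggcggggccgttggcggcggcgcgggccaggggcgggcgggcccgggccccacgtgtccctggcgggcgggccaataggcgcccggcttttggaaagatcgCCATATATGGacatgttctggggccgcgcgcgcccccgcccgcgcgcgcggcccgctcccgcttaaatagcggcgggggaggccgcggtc
An exact CArG box stood in the Acta1 window at bases -73 to -64 from the start, in Actc1 at -47 to -38 and in Actg1 at -90 to -81. Windows of this length held one in 1.47% of 32851 cases. Acta2 had no exact box but 2 with 1 other base, at -84 to -75 and -34 to -25. Counted in that looser way, including the exact ones, there were 3 boxes in Acta1, 4 in Actc1, 2 in Acta2 and 1 in Actg1, and 8.59% of all windows held at least 1. The MCAT motif CATTCC, searched on both strands and bound by TEAD factors, occurred in Acta1 and Acta2 and not in the Actc1 or Actg1 window, against 12.6% of all windows. These are matches of letters only, and no binding was measured.

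Actc1 was by far the most abundant of the 5. On a scale of CPM, the counts scaled to a common library size by the TMM method, and per kilobase of the longest coding transcript, it was at 7696 ± 1729 (SD, n = 3) in the wild type and 6367 ± 808 (n = 3) in the knockout. Acta1 followed at 1231 ± 120 and 503 ± 41.1. Actb came next at 201 ± 10.7 and 161 ± 22.3. On this scale each library had the same order for these 3 genes, without overlap between them. Acta2 and Actg1 were lowest. In the wild type Acta2 was at 55.8 ± 11.7 and Actg1 at 38.7 ± 2.30, and their libraries did not overlap. In the knockout both were at 33.1, with SDs of 4.57 for Acta2 and 9.97 for Actg1, so their order could not be told there.

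The skeletal alpha-actin transcript set the genotypes apart most clearly. In CPM, Acta1 was at 1949, 1790 and 1602 in wild-type replicates 1, 2 and 3, and at 786, 729 and 667 in knockout replicates 1, 2 and 3. The groups were well separated, and each was tight, with a coefficient of variation of 9.74% in the wild type and 8.16% in the knockout. Acta1 fell 2.45-fold (log2 fold change -1.29, SE 0.13, edgeR quasi-likelihood adjusted p = 0.00304), and its p was the smallest among the 13384 genes. It was the 1 actin gene of 5 past the threshold of 0.05, where 0.0224% of all genes were called lower and 0.112% were called in either direction. As in any bulk tissue, fewer cells of a type and less RNA per cell cannot be told apart. With 1 library left out Acta1 still passed in 5 of 6 fits, and missed the threshold without knockout replicate 3 (log2 fold change -1.23, edgeR adjusted p = 0.0562). Over 19 alternatives its log2 fold change lay between -1.36 and -1.01.

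The cardiac isoform did not separate the genotypes. In wild-type replicates 1, 2 and 3 the Actc1 level was 13876, 8781 and 11353 CPM, and in knockout replicates 1, 2 and 3 it was 10708, 8411 and 9017 CPM. The highest library was wild-type replicate 1, and wild-type replicate 2 lay below 2 of the knockout libraries. The log2 fold change was -0.27 (SE 0.17, edgeR adjusted p = 0.387). It ran from -0.42 without wild-type replicate 2 to -0.10 without wild-type replicate 1.

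Smooth muscle alpha-actin lay lower in each knockout library than in any wild-type library, but did not pass the test over all genes. In wild-type replicates 1, 2 and 3 the Acta2 level was 141, 98.0 and 102 CPM, and in knockout replicates 1, 2 and 3 it was 68.3, 76.0 and 57.5 CPM. Its log2 fold change was -0.75 (SE 0.16, edgeR adjusted p = 0.0656). It was -0.57 without wild-type replicate 1, the library with most Acta2, and -0.85 without knockout replicate 2. Acta2 passed in DESeq2 (adjusted p = 0.00218), where 2.03% of genes were called lower, and in edgeR without wild-type replicate 2 (-0.84, edgeR adjusted p = 0.00972), where 6.49% were.

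The cytoplasmic actins showed small differences that did not pass. In wild-type replicates 1, 2 and 3 the Actb level was 378, 369 and 408 CPM, and in knockout replicates 1, 2 and 3 it was 276, 357 and 294 CPM. Its groups did not overlap, with knockout replicate 2 next to the lowest wild type, and the log2 fold change was -0.32 (SE 0.13, edgeR adjusted p = 0.215). In wild-type replicates 1, 2 and 3 the Actg1 level was 80.5, 71.7 and 74.6 CPM, and in knockout replicates 1, 2 and 3 it was 45.2, 84.1 and 64.4 CPM. The wild-type libraries were close together while the knockout libraries spread on both sides of them (log2 fold change -0.23, SE 0.19, edgeR adjusted p = 0.522). Without knockout replicate 2 the value was -0.47, and without knockout replicate 1 it was -0.026. In all, the groups did not overlap for 3 of the 5 genes, all lower in the knockout, and for 22.3% of all genes, 10.5% in that direction.

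**Figure D1:**
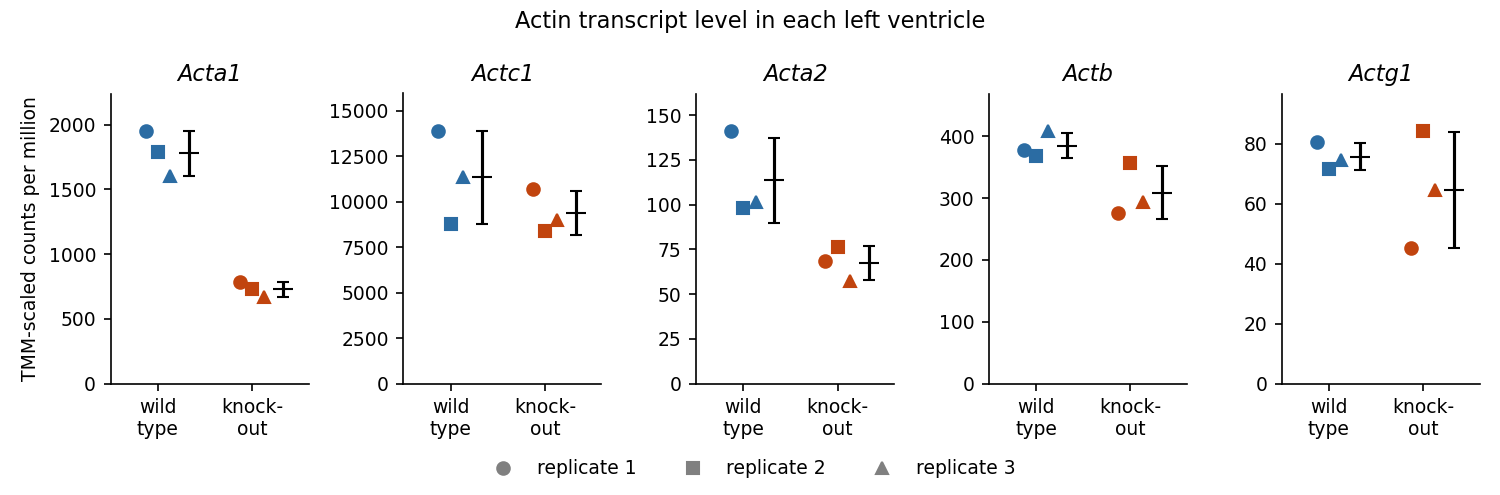
TMM-scaled CPM of each actin gene in the 6 libraries, with the mean and SD of each group (n = 3) in black. For Acta1 all knockout libraries lie at 667 to 786 and all wild types at 1602 to 1949, while the groups overlap for Actc1 and Actg1.

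A trend on base composition ran across all genes between the genotypes, and it touched the actins unequally. With genes ordered by GC content into 5 equal bins, the bin richest in GC had a median log2 fold change of -0.25 and the poorest one of 0.21. By the mean GC content of their coding transcripts, Acta1 (57.7%) and Actb (56.7%) belong to the richest bin, Actc1 (55.0%) and Actg1 (54.4%) to the next, and Acta2 (50.2%) to the middle bin, whose median was 0.0087. These means include short gene models. The longest transcript alone had 57.0% in Acta1, 51.1% in Actb, 52.3% in Actc1, 52.6% in Actg1 and 49.6% in Acta2. The bins of Actb, Actc1 and Actg1 thus depend on that choice. The correction used the mean GC content and the median transcript length, and one on the longest transcripts was not made. Short gene models lower that median, as for Actc1 (888 bases against 1473 in its longest transcript) and Actb (930 against 1920). After a correction of each library for GC content and length, Acta1 was at -1.02 (SE 0.14, edgeR adjusted p = 0.00854) and Acta2 at -0.73 (SE 0.16, edgeR adjusted p = 0.0469). In that fit 2 of the 5 genes passed, both lower, as did 0.277% of all genes. Actc1 was then at -0.074 (SE 0.18), Actb at -0.077 (SE 0.12) and Actg1 at -0.066 (SE 0.17). Acta1 and the last 3 genes thus lay nearer to 0 than without the correction, while Acta2 hardly moved.

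**Figure D2:**
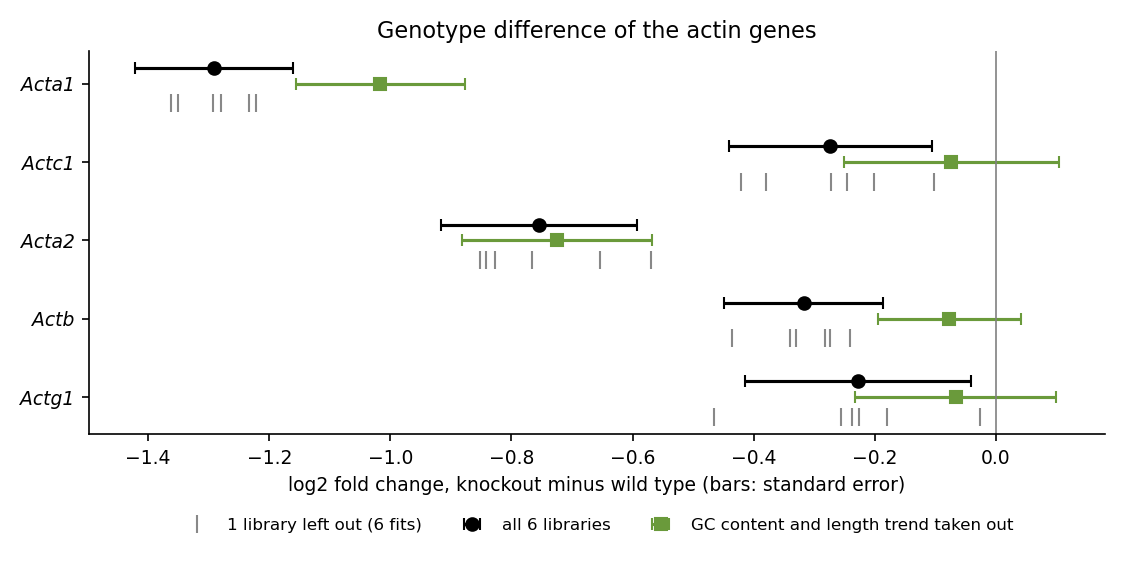
Log2 fold change (knockout minus wild type) of each actin gene with its standard error, in edgeR on all 6 libraries (black) and with the trend on GC content and length taken out (green); grey ticks are the 6 fits that leave out 1 library. Acta1 and Acta2 keep values of -1.02 and -0.73 with the trend taken out, while Actc1, Actb and Actg1 lie between -0.077 and -0.066.

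Shares within the actin counts need no size factor, so they give the isoform balance inside each library. Acta1 made up 11.9%, 16.1% and 11.8% of the counts of the 5 genes in wild-type replicates 1, 2 and 3, and 6.62%, 7.55% and 6.61% in knockout replicates 1, 2 and 3. The mean share was 13.3% ± 2.46 in the wild type and 6.92% ± 0.541 in the knockout, a difference of -6.35 percentage points. The groups did not overlap (exact permutation test, two-sided, p = 0.1, the smallest that 3 against 3 can give; 0.25 after Benjamini-Hochberg adjustment over the 5 shares). Wild-type replicate 2, with the highest Acta1 share, had the lowest Actc1 level of the wild types and the middle Acta1 level.

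Actc1 took up the complement. Its share was 84.5%, 79.0% and 83.8% in wild-type replicates 1, 2 and 3, and 90.1%, 87.1% and 89.3% in knockout replicates 1, 2 and 3. The knockout share was 6.37 points higher, again without overlap (exact permutation p = 0.1, adjusted p = 0.25). Since the shares of a library sum to 100%, this is the other side of the lower Acta1 share and no separate result.

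The other 3 isoforms were minor parts of the total and their groups overlapped. Acta2 made up 0.830% ± 0.0696 in the wild type and 0.644% ± 0.124 in the knockout (exact permutation p = 0.2, adjusted p = 0.333). Actb made up 2.88% ± 0.524 and 2.98% ± 0.692 (p = 0.9 in the exact permutation test, adjusted p = 0.9), and Actg1 0.562% ± 0.0782 and 0.630% ± 0.246 (p = 0.8, exact, adjusted p = 0.9). The 95% Wilson interval of a single share was at most 0.298 points wide, which covers counting error only. Dividing by transcript length left the picture as it was, with Acta1 at 13.6% ± 2.54 and 7.12% ± 0.573 per length of the full-length transcript.

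**Figure D3:**
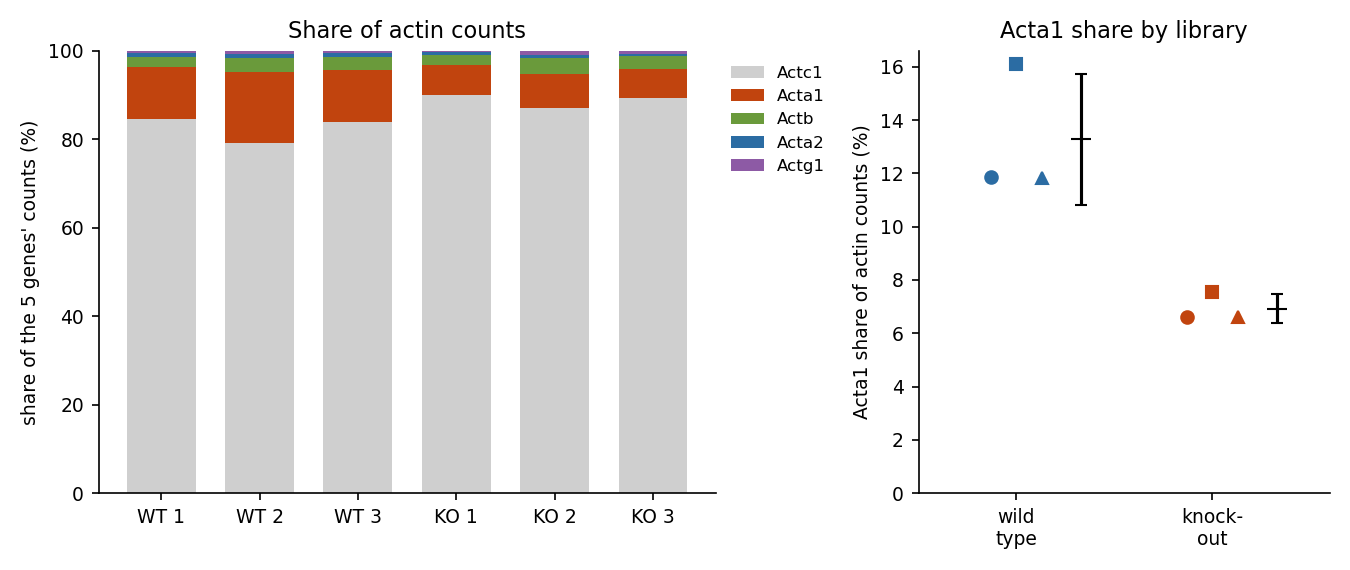
Left, share of the summed counts of the 5 genes taken by each gene in each library (WT, wild type; KO, knockout; percent, adding to 100). Right, the Acta1 share by library (shapes mark replicates 1 to 3 as circle, square and triangle) with mean and SD; wild types lie between 11.8% and 16.1% and knockouts between 6.61% and 7.55%.

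Summed over the 5 genes, actin transcripts made up 1.38% ± 0.229 of all counts in the wild type and 1.04% ± 0.105 in the knockout. The summed level was 13691 ± 2660 CPM against 10547 ± 1178 CPM, a log2 difference of -0.36 (exact permutation p = 0.2), with overlap between the groups. Of the difference of the means, Actc1 gave 62.3% and Acta1 33.5%.

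Ratios between pairs of isoforms leave the other genes out. There were 14.0, 20.4 and 14.1 Acta1 counts per 100 Actc1 counts in wild-type replicates 1, 2 and 3, and 7.34, 8.67 and 7.40 in knockout replicates 1, 2 and 3. The mean log2 ratio was -3.68 ± 0.14 in the knockout and -2.65 ± 0.31 in the wild type, a difference of -1.03, and the groups did not overlap (exact permutation p = 0.1; adjusted over 4 ratios p = 0.4). Acta2 against Actc1 differed by -0.49 on the log2 scale with overlap (exact permutation p = 0.2, adjusted p = 0.4). Actb against Actc1 (-0.068, exact permutation p = 0.8) and Actg1 against Actb (0.053, exact permutation p = 0.8) were near 0, and each turned sign when single libraries were left out.

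Levels of other cell types bear on these values. The 7 cardiomyocyte markers, all measured, summed to 53435 to 65878 CPM in the wild type and 50874 to 62291 CPM in the knockout, with none past the threshold. Relative to that sum Acta1 was at 2.96%, 3.35% and 2.69% in wild-type replicates 1, 2 and 3, and at 1.55%, 1.20% and 1.07% in knockout replicates 1, 2 and 3, without overlap (exact permutation p = 0.1). Actc1 on the same footing was at 18.8% ± 2.32 and 16.4% ± 4.0, with overlap. Myh6 was the largest part of that sum, at 22584 to 34456 CPM in the wild type and 19988 to 31712 CPM in the knockout. Both ratios depend much on it, and a ratio without it was not made. Of the 7 markers 5 were below 0 in log2 fold change, and Ryr2 (0.70) and Pln (0.27) were above. Of 10 skeletal muscle markers 1 was measured, the calcium pump gene Atp2a1, at 0.737 to 2.06 CPM in the wild type and 0.858 to 1.17 CPM in the knockout.

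Atrial muscle and mesothelium, which lie next to the ventricle, were unevenly present. The 6 measured atrial markers of 7 summed to 863, 123 and 166 CPM in wild-type replicates 1, 2 and 3. In the knockouts they summed to 118 to 151 CPM, so wild-type replicate 2 lay within the knockout range. The 4 measured mesothelial markers of 6 summed to 23.6 to 49.4 CPM in the wild type and 13.5 to 19.5 CPM in the knockout. Of the single genes, 5 of 6 atrial and 3 of 4 mesothelial markers were below 0, with none past the threshold. The atrial myosin light chain genes Myl7 and Myl4 and the transcription factor gene Nr2f1 were lower in each knockout than in any wild type, also with wild-type replicate 1 set aside. Myl7 was at 250, 19.2 and 27.6 CPM in the wild types and 12.0, 12.1 and 13.4 CPM in the knockouts, in replicate order. Of the mesothelial markers 2, Msln and Upk3b, did not overlap either, where 10.5% of all genes were lower in the knockout without overlap. Myl7, Myl4, Nr2f1, Msln and Upk3b were thus lower in the knockout together with Acta1 and Acta2. The atrial marker Kcnj5 (log2 fold change 0.21) and the mesothelial marker Wt1 (0.15) were above 0, and Sln, Nr2f2 and Gpm6a overlapped between the groups. Kcnj5, at 50.9 to 87.6 CPM over the libraries, was a large part of the lower atrial sums. Without wild-type replicate 1 Acta1 was at -1.22 (edgeR adjusted p = 0.00304), and the part of atrial and mesothelial RNA in the actin values was not tested.

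For Acta2 the vessel wall is the tissue to compare with. The 8 smooth muscle markers, all measured and none past the threshold, summed to 385 to 551 CPM in the wild type and 375 to 452 CPM in the knockout. The highest sum was in wild-type replicate 1, which also had most Acta2. Relative to the sum Acta2 was at 25.6%, 24.9% and 26.4% in wild-type replicates 1, 2 and 3, and at 18.2%, 18.1% and 12.7% in knockout replicates 1, 2 and 3. The groups did not overlap, and the wild types were within an SD of 0.755 points (exact permutation p = 0.1). Smtn and Synpo2 gave most of that sum, so the ratio depends mainly on them, and a ratio without them was not made. Synpo2 was at 134, 108 and 86.3 CPM in the wild types and 137, 116 and 156 CPM in the knockouts, in replicate order. Of the 8 markers 7 were below 0, with a median of -0.21, and Synpo2 was above (0.32). The regulatory light chain gene Myl9 was at 55.7, 31.8 and 29.2 CPM in the wild types and 20.8, 24.2 and 23.1 CPM in the knockouts, in replicate order. It was the 1 marker of the 8 that did not overlap between the groups (log2 fold change -0.77, SE 0.22, edgeR adjusted p = 0.113). Over all genes 10.5% were lower in the knockout without overlap. The calponin-family gene Tagln (-0.40) and Lmod1 (-0.49) overlapped. The smooth muscle myosin gene Myh11 had 66.9, 41.4 and 34.2 CPM in the wild types and 26.9, 49.9 and 52.0 CPM in the knockouts, and overlapped too. The part of smooth muscle content in the Acta2 value was not tested.

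Markers of activated fibroblasts, which also bear Acta2, were mostly below 0 in log2 fold change, and their sum was highest in 1 wild type. The 7 myofibroblast markers summed to 1254 CPM in wild-type replicate 2, to 460 and 470 CPM in the other wild types and to 347 to 531 CPM in the knockout. Acta2 was lowest among the wild types in that library, at 98.0 CPM. Of these markers 6 of 7 were below 0, with a median of -0.98, and Fap was above (0.20). Postn was at 97.8, 542 and 123 CPM in the wild types and 172, 167 and 104 CPM in the knockouts, in replicate order. Cthrc1, whose value is the median, was at 0.988, 8.37 and 0.754 CPM and at 1.43, 2.62 and 0.970 CPM. For both, wild-type replicates 1 and 3 lay within or below the knockout range. The transcription factor gene Meox1 was at 32.8, 54.8 and 39.1 CPM in the wild types and 23.5, 22.7 and 15.9 CPM in the knockouts (log2 fold change -1.03, SE 0.20, edgeR adjusted p = 0.0618). Meox1 and the matrix genes Comp and Ltbp2, 3 of the 7, were lower in the knockout without overlap, as were 10.5% of all genes. The 6 pericyte markers summed to 545 to 644 CPM and 555 to 580 CPM, the 6 fibroblast markers to 1138 to 2421 CPM and 1185 to 1418 CPM, and the 6 endothelial markers to 963 to 1411 CPM and 881 to 1104 CPM, in the wild type and the knockout. The 7 macrophage markers summed to 187 to 215 CPM and 224 to 255 CPM, and 4 of 6 red cell markers to 251 to 664 CPM and 224 to 298 CPM. The macrophage sum was higher in each knockout library. Only 1 of the 7, Cd163 (log2 fold change 0.91), was higher there without overlap, where 22.3% of all genes did not overlap in either direction. C1qa (-0.0045) and C1qb (-0.023) were near 0. None of the pericyte, fibroblast, endothelial, macrophage or red cell markers passed, and their part in the actin values was not tested.

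**Figure D4:**
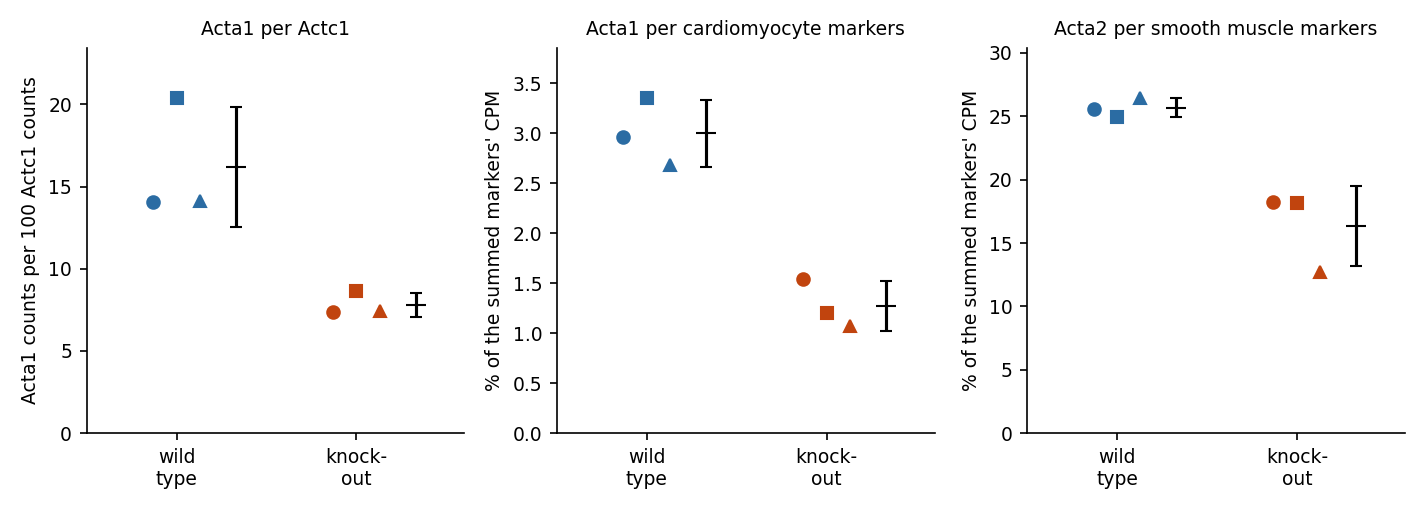
Acta1 counts per 100 Actc1 counts, Acta1 as percent of the summed CPM of 7 cardiomyocyte markers, and Acta2 as percent of the summed CPM of 8 smooth muscle markers, by library with mean and SD (n = 3). In each panel all 3 knockout libraries (red) lie below all 3 wild types (blue).

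Genes that work with actin were read from 5 lists, and no member of any passed the edgeR test over all genes. The list called thin filament here holds genes of the thin filament and Z-disc. It also holds the thick filament genes Myh6, Myh7, Myl2, Myl3 and Mybpc3 and the titin gene Ttn. At an unadjusted edgeR p under 0.05 there were 7 higher and 1 lower for the thin filament, 4 and 3 for SRF partners, 1 and 8 for SRF targets, 2 and 8 for assembly and 0 and 5 for folding. Over all genes 10.3% were higher and 9.09% lower at that level, so the numbers for assembly and folding, both directions together, were near the background. Their lower members alone, 8 of 45 and 5 of 24, were above the share of all genes that were lower. DESeq2 called 3 thin filament, 3 SRF partner, 7 SRF target, 3 assembly and 2 folding genes, against 4.71% of all genes. Of all genes 50.5% were below 0, and the median log2 fold change was -0.0046, or 0.036 with the correction for GC content and length.

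In the thin filament and Z-disc list, with its thick filament and titin genes, 11 of 27 measured genes were below 0. The median was 0.040 (0.076 after the correction). Acta1 thus lay far from the median of this mixed list of sarcomere genes. The members of smallest p were Neb, the nebulin gene of skeletal muscle filaments (0.78, SE 0.23, edgeR adjusted p = 0.117), the slow skeletal troponin gene Tnnt1 (0.53, SE 0.16, edgeR adjusted p = 0.119), Synpo2l (-0.58, SE 0.18) and the nebulette gene Nebl (0.76, SE 0.26). The Tnnt1 level was 10.1 ± 1.43 CPM in wild types and 14.6 ± 0.194 CPM in knockouts.

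SRF itself and its partners went both ways, with 8 of 19 below 0 and a median of 0.046 (6 of 19 and 0.11 after the correction). In wild-type replicates 1, 2 and 3 the Srf level was 212, 149 and 167 CPM, and in knockout replicates 1, 2 and 3 it was 124, 122 and 124 CPM (fold change on the log2 scale -0.52, SE 0.14, edgeR adjusted p = 0.102). The knockout libraries were almost equal and all below the wild types. The cardiac homeobox gene Nkx2-5 was at -0.72 (SE 0.20, edgeR adjusted p = 0.109), while Mef2a, a muscle transcription factor gene (0.84, SE 0.20, edgeR adjusted p = 0.0773), and Myocd, which encodes the SRF coactivator myocardin (0.53, SE 0.16, edgeR adjusted p = 0.118), were on the other side of 0.

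Cytoskeletal targets of SRF and of its MRTF cofactors were mostly below 0, at 23 of 28, with a median of -0.22. With the GC content and length trend taken out it was 18 of 28, with a median of -0.099. All smooth muscle markers used above except Myh11 are also members of this list. Both readings thus rest partly on the same genes, and the part of smooth muscle content in this list was not tested. Tpm2, a tropomyosin gene of smooth and slow muscle, had a level of 44.9 ± 9.5 CPM in wild types and 24.7 ± 4.18 CPM in knockouts (-0.86, SE 0.17, edgeR adjusted p = 0.0628). The calponin gene Cnn2 (-0.54, SE 0.12, edgeR adjusted p = 0.0711), Pdlim7 (-0.59, SE 0.14) and Tgfb1i1 (-0.51, SE 0.14) followed.

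Among genes of filament assembly and turnover 29 of 45 were below 0, with a median of -0.11. After the correction for GC content and length it was 24 of 45, with a median of -0.031, and without knockout replicate 3 the median was -0.012. Gsn, which encodes the filament-severing protein gelsolin, had a level of 1348 ± 32.4 CPM in wild types and 992 ± 17.4 CPM in knockouts (-0.44, SE 0.11, edgeR adjusted p = 0.0912). Its groups were tight and did not overlap. The filament elongation gene Vasp (-0.52, SE 0.14) and the formin genes Fhod1 (-0.80, SE 0.23) and Diaph2 (0.52, SE 0.17) had the next smallest p. For folding and processing of actin 16 of 24 were below 0, with a median of -0.062. After that correction it was 13 of 24, with a median of -0.020, and without knockout replicate 3 the median was -0.015. The methionine sulfoxide reductase gene Msrb3 had a level of 109 ± 14.1 CPM in wild types and 65.2 ± 6.29 CPM in knockouts (-0.75, SE 0.14, edgeR adjusted p = 0.0565). The actin-oxidizing enzyme genes Mical1 (-0.54, SE 0.16) and Mical2 (-0.41, SE 0.13) and the chaperone cofactor gene Pdcl3 (-0.30, SE 0.12) came after it.

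**Figure D5:**
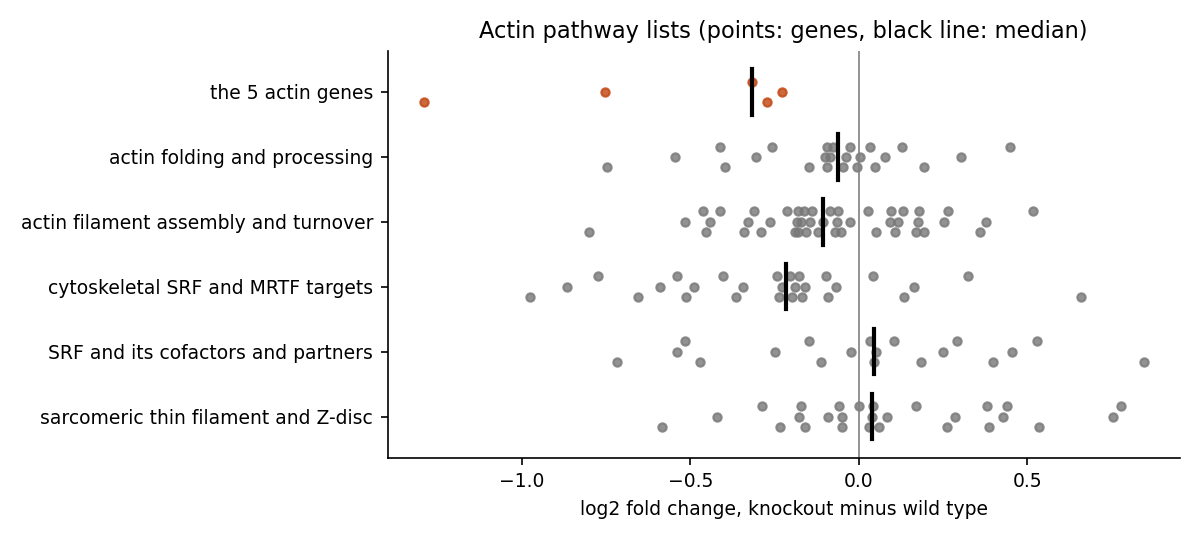
Log2 fold change (knockout minus wild type) of each measured gene in the 5 actin pathway lists and of the 5 actin genes (red), with the median of each list as a black line. Medians lie between -0.22 for the SRF and MRTF targets and 0.046 for SRF and its partners, and at -0.32 for the actin genes.

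Genes were also ranked by how closely their pattern over the 6 libraries followed each actin, as the mean absolute difference between log2 CPM values centred on the gene's mean. Acta1, whose values spanned 1.55 on the log2 scale, was followed most closely by Dact3, a WNT pathway modulator gene (mean difference 0.13), the sialyltransferase gene St6galnac2 (0.20) and Trp53i11 (0.22). The Dact3 level was 36.0 ± 6.44 CPM in wild types and 13.4 ± 1.62 CPM in knockouts (edgeR adjusted p = 0.00726). Acta2, with a span of 1.29, had among its closest genes the Notch target gene Heyl (0.090) and Tpm2 (0.091). The Heyl level was 46.2 ± 8.34 CPM in wild types and 28.2 ± 1.97 CPM in knockouts (-0.71, SE 0.15, edgeR adjusted p = 0.0628). Among the actins Acta2 was the one most like Acta1, at a mean difference of 0.27, and Actb and Actg1 were the closest pair, at 0.15. Actc1 was nearest to Hexim1, Srebf2 and Zbed3 (0.047 to 0.048), Actb to Ccdc12, Ddrgk1 and Rab24 (0.030 to 0.043) and Actg1 to Uba7, Efnb2 and Naglu (0.070 to 0.075). All points come from the same 6 libraries, and genes of small span match many others by this measure.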

How the data were processed

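Raw counts per gene were deposited by the authors as whole numbers in 1 table for 6 left ventricle libraries. Per the submitters' processing notes the build is mm10 and DESeq2 was used, with no versions; the aligner, counter, annotation, strand setting and filters are unknown (not given in the sources used here). Counts were tested with edgeR 4.0.16 (in R 4.3.3; TMM, robust quasi-likelihood test, the tool's filter, two-sided, Benjamini-Hochberg over all 13384 genes, threshold 0.05), knockout minus wild type without covariates. Standard errors come from the test statistic. Shares, ratios and sums were compared by exact permutation tests over libraries (scipy 1.17.1). The common biological coefficient of variation was 0.166, so spread between libraries, not depth, limits these abundant genes. Per-kilobase levels use the longest coding GENCODE M21 transcript, because short gene models lower the median length. Mean GC content and median transcript length were found for 94.5% of genes and enter as splines with 4 degrees of freedom. The script was tested on simulated data. Members, lists and tests were chosen with earlier results of these data known. Named genes are the 5 actins, the 4 smallest p per list and the 3 genes most like each actin, at a mean of at least 10 CPM and with a conventional symbol; 1 of the genes so chosen is not reported here. Single cell type markers and Actg2 were named after their values had been seen. The ratios to marker sums were added after values had been seen. Alternatives were other size factors, filters and tools (DESeq2 1.42.0, limma-voom 3.58.1), size factors without mitochondrial or actin genes, blocking on replicate number, and fits leaving out single libraries. Cygb was not analysed here, so genotypes were taken from the labels.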

Additional observations from a re-analysis of the deposited data

How the results depend on the processing

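Acta1 kept its direction in all 19 alternatives and its side of the threshold in 18. Leaving out 1 library gave log2 fold changes of -1.36 to -1.22. The tool's filter removed no gene, so the alternative without that filter could not differ from the test on all libraries. Acta2 kept its direction in 19 and was past the threshold in DESeq2 (-0.76), with GC content and length offsets (-0.73), with the replicate number as a block (-0.74, edgeR adjusted p = 0.0205) and without wild-type replicate 2 (range -0.85 to -0.57 with 1 library left out). The number of actin genes that fell was 1, and it was 2 in DESeq2, 2 with the offsets, 2 with the replicate block and 0 to 2 with 1 library left out. Same-numbered libraries did not deviate together (correlations -0.132, -0.0823 and -0.167), so the block pairs libraries by number alone; together with the offsets it gave -1.01 for Acta1 (edgeR adjusted p = 0.0188) and -0.70 for Acta2 (edgeR adjusted p = 0.0898). Calls over all genes were 12 higher and 3 lower, and 91 and 35 with the offsets, 143 and 92 with the block, 352 and 266 in DESeq2 and with 1 library left out from 0 and 0 without knockout replicate 3 to 982 and 869 without wild-type replicate 2. Differences of the Acta1 share ranged from -7.07 to -4.93 points with 1 library left out. Small differences turned sign there: the Actb share ranged from -0.26 to 0.43 points, the Actg1 share from -0.053 to 0.19 points, and the log2 ratios of Actb over Actc1 from -0.25 to 0.11 and of Actg1 over Actb from -0.051 to 0.21. Members past the threshold in the pathway lists, 0 in the edgeR test on all libraries, numbered 3 (thin filament), 3 (SRF partners), 7 (SRF targets), 3 (assembly) and 2 (folding) in DESeq2. They numbered 1, 0, 1, 0 and 1 with the offsets, 0, 0, 2, 0 and 1 with the block, 1 for folding with block and offsets, and 0 to 2, 0 to 7, 0 to 5, 0 to 6 and 0 to 3 with 1 library left out, each highest number without wild-type replicate 2. The cause of these shifts was not tested. With 5 libraries no exact test could go below 0.2.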

Other observations

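Enteric smooth muscle gamma-actin, made from Actg2 and typical of gut muscle, was measured as well and belongs to no comparison above. In replicate order its level was 1.36, 1.05 and 1.25 CPM in the wild types and 1.06, 2.29 and 1.46 CPM in the knockouts (log2 fold change 0.40, SE 0.34, edgeR adjusted p = 0.536). The knockout libraries lay within or above the range of the wild types. At this level the Actg2 values rest on few counts.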
